A study of Homo sapiens with 27 samples.

Results

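LN521 cultures of the human embryonic stem cell line H1 were compared between day 32 and day 22 of retinal differentiation. The comparison held 6 of the 27 bulk RNA-seq libraries of the series, 3 at each day, chosen by matrix and day from the library names and matched by their lane suffix. In the labels the LN521 coating is a mixture of laminin 521 and laminin 323, whereas the methods of the study describe LN521 without a second laminin, so the coating is called LN521 here and its composition is uncertain. The H1 cells were at passages 10 to 25, and no sorting of cells is named for these libraries, so each may mix several cell types. The cells received CKI-7 and SB431542 from day 2, then a photoreceptor medium with B27 without vitamin A, N2, BDNF, CNTF, retinoic acid and DAPT, from day 7 by the labels and from day 9 by the methods. Both days therefore had the same medium, and the library titles number them as days 20 and 30. Cultures on the LN523 and LN323 coatings, with 3 libraries at each of the same days, served to show where LN521 differed. Their libraries also entered the estimate of the spread behind the LN521 p-values. By the methods of the study both coatings are mixtures with LN521, so the coatings compared share a laminin. Nothing in the sources used here says that the 3 libraries of a group came from separate cultures. The p-values measure only the spread of the day differences between lanes, estimated over the 3 coatings, and this spread may be technical.

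Laminins are basement membrane proteins built from an alpha, a beta and a gamma chain, and they bind integrins and dystroglycan on the cell surface. Pluripotent cells guided to the optic lineage first form retinal progenitors, marked by PAX6 and RAX. Progenitors that leave the cell cycle switch on proneural factors and Notch ligands, and ganglion cells and cones are among the first neurons that they form. Pigment epithelium arises from the same field, and surface ectoderm, the source of lens, cornea and epidermis, lies beside it in the embryo and can appear in the same cultures.

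The 6 LN521 libraries held 32940453 to 40679201 counts, so that 3 counts stood for 0.0704 to 0.0904 CPM, the count scaled to library size after normalization. Eye field genes were detected in all of them, although the study also calls PAX6 a neuroectodermal marker. PAX6 measured 436, 624 and 848 CPM in lanes 1 to 3 at day 22 and 398, 742 and 840 CPM at day 32. RAX, a homeobox gene of the eye field, measured 136, 176 and 194 CPM at day 22 and 372, 77.1 and 203 CPM at day 32. Lane 1 stood apart from the others at both days. The 20 ganglion cell genes summed to 1520 CPM in lane 1 at day 22, against 455 and 328 CPM in lanes 2 and 3, and to 1361, 634 and 465 CPM at day 32. In lane 1 at day 22 STMN2, a list member of growing axons, was at 186 CPM, but POU4F2, a ganglion cell factor, was at 0.680 CPM. Which cells gave this sum was not tested. The 15 pluripotency genes summed to 734, 307 and 221 CPM at day 22, and POU5F1 was at 76.3 CPM in lane 1 against 1.37 and 1.54 CPM in lanes 2 and 3. Calls are therefore given with and without lane 1.

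Between day 22 and day 32, 115 of the 42336 genes tested changed on LN521, which is 0.272% of them, by edgeR's quasi-likelihood test with a Benjamini-Hochberg adjusted p-value under 0.05. Of these, 86 rose (0.203%) and 29 fell (0.0685%). At an unadjusted p-value under 0.05, 1359 genes were higher (3.21%) and 1403 lower (3.31%) at day 32, and the biological coefficient of variation was 40.4%. The 86 rises had a median log2 fold change of 3.04 and the 29 falls of -2.08, while the median over all genes tested was 0.00. The sign was the same in all 3 lanes for 84 of the rises and 28 of the falls. The 3 libraries of one day did not overlap those of the other in 64 of the rises and 20 of the falls, and over all genes tested such a separation occurred in 3.76% for higher and 4.55% for lower values at day 32. Among genes with a mean of at least 1 CPM these shares were 6.26% and 7.61%.

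**Figure D1:**
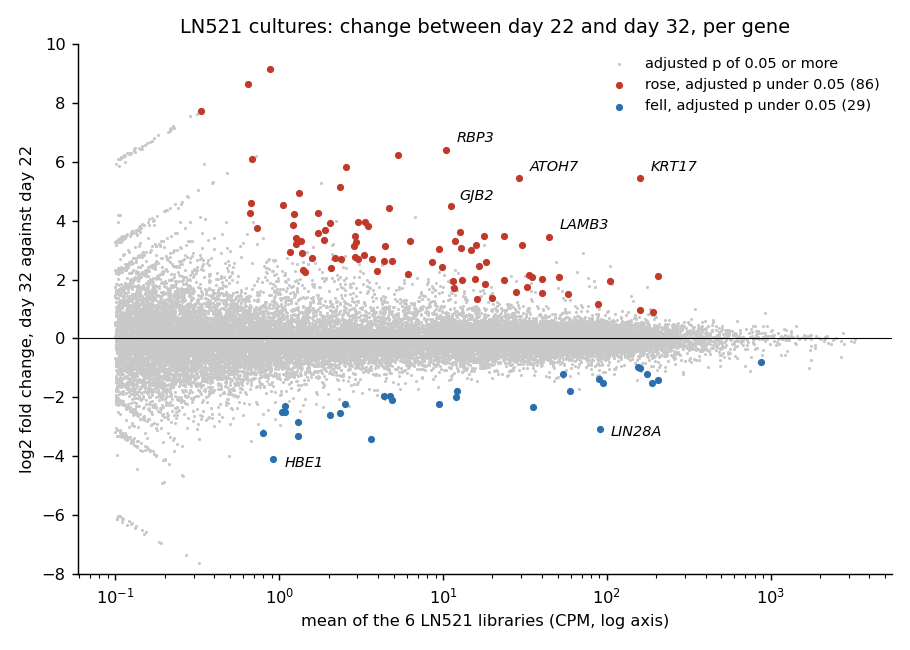
Log2 fold change of each gene between day 22 and day 32 on LN521 (vertical axis) against its mean level over the 6 LN521 libraries (CPM, log axis), for genes with a mean over 0.1 CPM. The 86 genes that rose are red and the 29 that fell are blue, and KRT17 lies highest among the genes above 100 CPM.

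The number of calls depended on how lanes were handled. Without the block for the lane, 12 genes passed in place of 115, and all of these were among the 115. When both lane 1 libraries were left out, 9 genes passed, against 61 without lane 2 and 41 without lane 3. Genes with the most stable calls were KRT17, which passed in 16 of 16 alternative settings, LAMB3, which passed in 15 of 16, GJB2 in 14 of 16 and RBP3 in 14 of the 15 settings that gave it a value. Of the 43 genes that were named for the size of their change or were called list members, only KRT17, RBP3, ATOH7 and SERPINI2 passed without the lane block, and only KRT17, LAMB3, GJB2, RBP3 and STMN2 passed without lane 1.

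Keratins and other genes of surface epithelium gave the most called members of any list on LN521, in a list that was among the longest. In the shorter proneural and Notch list, 4 of 18 genes rose, and 0.203% of all genes tested rose. Of the 40 surface epithelium genes tested, 7 rose, 0 fell and 33 did not pass. The list median was 0.60 on the log2 scale against 0.00 over all genes. KRT17, a keratin of basal and stressed epidermis on chromosome 17 (41619442 to 41624842, minus strand, GRCh38), measured 6.10, 10.9 and 4.68 CPM in lanes 1 to 3 at day 22. At day 32 it measured 344, 396 and 190 CPM. Every day 32 library was far above every day 22 library, with no overlap. The mean of 3 libraries was 7.23 ± 3.26 CPM at day 22 and 310 ± 107 CPM at day 32 (SD), and the log2 fold change was 5.44 ± 0.36 (SE), with an adjusted p of 6.9e-07 by edgeR.

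KRT15, a keratin of basal and limbal epithelium, measured 3.07, 6.55 and 1.83 CPM at day 22 and 71.4, 37.0 and 20.6 CPM at day 32. The days did not overlap, and the log2 fold change was 3.47 ± 0.48 (SE, adjusted p = 0.0025). KRT4 and KRT13, the pair of keratins of moist stratified epithelium, also rose. KRT4 went from 2.39, 6.84 and 0.857 CPM to 46.2, 17.4 and 15.3 CPM, a log2 fold change of 3.01 ± 0.52 (SE). KRT13 was much lower, at 0.235, 0.0978 and 0.0286 CPM and then 5.12, 0.904 and 0.977 CPM, with a log2 fold change of 4.22 ± 0.63 (SE). For both genes lane 1 was the highest library at day 32. PKP1, a desmosomal plaque protein, went from 1.03, 0.489 and 0.171 CPM to 5.14, 8.56 and 1.84 CPM, a log2 fold change of 3.15 ± 0.54 (SE).

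Several other genes in the same list, of simple and of basal epithelium, did not pass. KRT8 measured 603, 756 and 884 CPM at day 22 and 887, 761 and 730 CPM at day 32, a log2 fold change of 0.10 ± 0.15 (SE). TP63, the transcription factor of basal epidermal cells, measured 55.3, 55.2 and 22.9 CPM and then 24.2, 90.2 and 26.9 CPM, and CDH1, the epithelial cadherin, had a log2 fold change of -0.02 ± 0.34 (SE). These genes were thus already present at day 22, with days that overlapped. The summed level of all 40 genes ranged from 2971 to 3804 CPM at day 22 and from 3144 to 6050 CPM at day 32, also with overlap. Over the list, 13 genes had days that did not overlap, all with day 32 higher, among them KRT5, KRT6A, KRT14, SFN and DSG3, which missed the threshold. Over all genes tested, 3.76% had days apart in this direction, and 6.26% of the genes at 1 CPM or more. In these bulk libraries more epithelial cells and more RNA per epithelial cell cannot be told apart.

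GJB2 encodes connexin 26, a gap junction protein of stratified epithelium, inner ear and other tissues, and lies on chromosome 13 (20187463 to 20192938, minus strand). It measured 1.5, 1.03 and 0.286 CPM at day 22 and 32.0, 17.7 and 14.3 CPM at day 32. The lowest day 32 library was several times above the highest day 22 library. The log2 fold change was 4.51 ± 0.39 (SE), with an adjusted p of 1.4e-05.

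**Figure D2:**
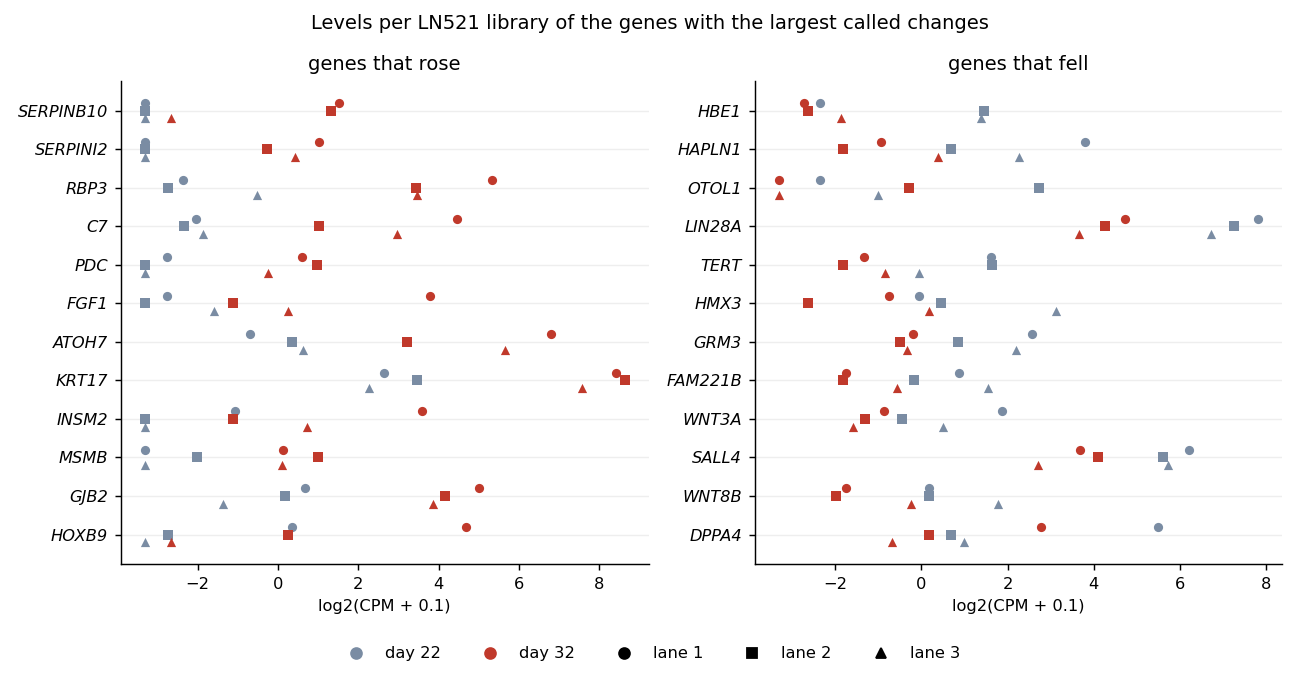
Level of each of the 24 named genes in each of the 6 LN521 libraries (horizontal axis, log2 of CPM + 0.1), with day 22 in grey-blue, day 32 in red and a separate symbol for each lane. KRT17, RBP3 and LIN28A have days that do not overlap, whereas HOXB9 and INSM2 do overlap and are highest in lane 1 at day 32.

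Among the chains that cells themselves make for laminins, LAMA3 and LAMB3 of the epidermal isoform rose and the embryonic alpha chain fell. Of 12 laminin chain genes, 2 rose, 1 fell and 9 did not pass, with a median of -0.01. Among all genes tested 0.203% rose and 0.0685% fell. LAMB3 measured 7.37, 12.2 and 3.08 CPM at day 22 and 90.4, 117 and 35.7 CPM at day 32, without overlap, a log2 fold change of 3.46 ± 0.24 (SE, adjusted p = 9.9e-07). Without the lane block its adjusted p was 0.374. LAMA3 measured 4.65, 6.53 and 2.69 CPM and then 18.6, 26.9 and 9.42 CPM, also without overlap, a log2 fold change of 1.97 ± 0.29 (SE, adjusted p = 0.0057). LAMA3 and LAMB3 also belong to the surface epithelium list.

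LAMA1, the alpha chain of the embryonic basement membrane, measured 216, 249 and 259 CPM at day 22 and 76.2, 156 and 92.8 CPM at day 32. It fell in each lane, with a log2 fold change of -1.22 ± 0.21 (SE, adjusted p = 0.013). The chains of LN521 itself, LAMA5, LAMB2 and LAMC1, had log2 fold changes of -0.45 ± 0.17, 0.04 ± 0.17 and -0.22 ± 0.15 (SE) and did not pass. LAMC3, the gamma chain of LN523 and LN323, measured 5.66, 13.1 and 4.29 CPM and then 5.39, 8.02 and 6.03 CPM. Of the 10 laminin receptor genes, 0 rose and 0 fell, with a median of 0.00. ITGA7, an integrin chain that binds laminins, was lower in every day 32 library at a log2 fold change of -0.72 ± 0.25 (SE) and did not pass. The 19 other matrix genes had 0 calls and a median of -0.37, 17 of them with a negative value. In 5 of them, COL18A1, NID1, HSPG2, AGRN and ACAN, every day 32 library was below every day 22 library, which held for 4.55% of all genes tested and for 7.61% of those at 1 CPM or more.

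Photoreceptor genes rose in small numbers, where 0.203% of all genes tested rose and 0.0685% fell. Of 15 fate factors, NEUROD1 and PRDM1 rose, 0 fell and 13 did not pass, with a median of 0.53 on the log2 scale. Of 48 genes of phototransduction and photoreceptor structure, RBP3 and CNGA3 rose, 0 fell and 46 did not pass, with a median of 0.40. To show the sequence context of both groups, the 250 bases before the transcription start in RefSeq (GRCh38.p14) were searched on both strands for TAATCC, a motif bound by the OTX2 and CRX homeodomains, and for CATGTG, the E-box bound by MITF. The motifs do not overlap each other. TAATCC stood in 9 of 37 matched phototransduction promoters (24.3%) and in 1 of 12 matched fate factor promoters (8.33%), against 5.67% of all 27305 promoters. The one fate factor was CRX, whose promoter is printed here from chr19:47821767-47821936 (plus strand) with its sites, 164 and 85 bases before the start and read from the opposite strand, in capitals.
CRX: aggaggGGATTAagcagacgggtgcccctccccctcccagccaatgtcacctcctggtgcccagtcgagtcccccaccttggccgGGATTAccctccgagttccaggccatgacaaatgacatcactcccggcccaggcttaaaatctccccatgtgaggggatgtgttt

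Of the genes that passed, RBP3 was not matched, NEUROD1, CNGA3 and MLANA held neither motif in this window, and PRDM1 held CATGTG. A match is a description of these letters only.

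RBP3, the retinoid-binding protein of the matrix around photoreceptors, lies on chromosome 10 (47348363 to 47357881, plus strand). It measured 0.0939, 0.0489 and 0.600 CPM at day 22 and 40.1, 10.8 and 10.9 CPM at day 32. The day 22 values of lanes 1 and 2 were close to the level of 3 counts, and every day 32 library was far above them. The log2 fold change was 6.41 ± 0.56 (SE, adjusted p = 2.5e-06), and without the lane block the adjusted p was 0.0123. NEUROD1, a basic helix-loop-helix factor of photoreceptor and amacrine precursors, measured 3.92, 1.47 and 0.314 CPM and then 48.4, 9.68 and 12.1 CPM. The days of NEUROD1 did not overlap, and its log2 fold change was 3.60 ± 0.55 (SE, adjusted p = 0.0064). PRDM1, a repressor that favours photoreceptor over bipolar fate, went from 2.28, 3.57 and 0.0571 CPM to 33.9, 9.16 and 7.41 CPM, a log2 fold change of 3.03 ± 0.50 (SE).

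CNGA3, a subunit of the cone channel, was low, at 0.188, 0 and 0 CPM at day 22 and 3.11, 0.241 and 0.460 CPM at day 32. Its log2 fold change of 4.26 ± 0.91 (SE) was near the threshold, with an adjusted p of 0.048. PDC, phosducin of photoreceptors, is not in the list but was among the genes named for their size of change, at 0.0469, 0 and 0 CPM and then 1.41, 1.87 and 0.747 CPM. CRX measured 14.5, 4.50 and 8.34 CPM at day 22 and 30.6, 13.3 and 8.73 CPM at day 32, a log2 fold change of 0.91 ± 0.52 (SE) that did not pass. OTX2, the factor above CRX, had a log2 fold change of 0.12 ± 0.39 (SE), and RCVRN, recoverin, of 3.23 ± 0.78 (SE) with an adjusted p of 0.095. NRL, the rod determinant, measured 1.52, 2.00 and 0.857 CPM and then 3.46, 1.57 and 1.09 CPM. Thus the calls on LN521 did not extend to CRX, OTX2, RCVRN or NRL, although CRX was above its day 22 library in each lane.

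Proneural factors and Notch ligands of the first retinal neurons were also among the rises. Of 18 such genes, 4 rose, 0 fell and 14 did not pass, with a median of 0.57, where 0.203% of all genes tested rose. ATOH7, the factor that makes progenitors competent for the ganglion cell fate, lies on chromosome 10 (68230595 to 68232113, minus strand). It measured 0.516, 1.17 and 1.43 CPM at day 22 and 112, 9.10 and 50.3 CPM at day 32. Lane 1 was highest and lane 2 lowest at day 32, and the days did not overlap. The log2 fold change was 5.45 ± 0.82 (SE, adjusted p = 0.0057), and the gene also passed without the lane block (adjusted p = 0.00802).

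NEUROD4 measured 4.22, 2.10 and 0 CPM and then 45.7, 8.98 and 9.65 CPM, a log2 fold change of 3.31 ± 0.53 (SE). OLIG2 measured 0.235, 1.07 and 0 CPM and then 12.2, 4.10 and 3.45 CPM, a log2 fold change of 3.83 ± 0.63 (SE). DLL4, a Notch ligand carried by newly formed neurons, measured 7.49, 2.25 and 3.54 CPM and then 134, 8.20 and 25.4 CPM, a log2 fold change of 3.17 ± 0.48 (SE). In these 3 genes, too, the days did not overlap and lane 1 was highest at day 32. DLL1, the ligand of dividing progenitors, had a log2 fold change of -0.69 ± 0.24 (SE) and did not pass, and NOTCH3, a receptor, was lower in every day 32 library at -0.55 ± 0.18 (SE) without passing. INSM2, a zinc-finger gene of the same family as the neuronal factor INSM1, measured 0.375, 0 and 0 CPM and then 11.9, 0.362 and 1.55 CPM, so that its days overlapped although its log2 fold change was 5.16 ± 0.69 (SE).

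Neuronal genes further downstream changed in few members, where 0.203% of all genes tested rose and 0.0685% fell. Of 20 ganglion cell genes, POU4F2 and STMN2 rose, 0 fell and 18 did not pass, with a median of 0.33. POU4F2, a POU-domain factor of ganglion cells, went from 0.680, 0.440 and 0 CPM to 11.8, 1.21 and 5.86 CPM, a log2 fold change of 3.95 ± 0.72 (SE, adjusted p = 0.016). STMN2, a microtubule regulator of growing axons, was at 186 CPM in lane 1 at day 22, against 10.1 and 7.88 CPM in the other lanes. At day 32 it was at 311, 58.4 and 55.5 CPM, so the days overlapped, although each lane rose, with a log2 fold change of 1.96 ± 0.33 (SE). POU4F1, a relative of POU4F2 that is also used by sensory neurons, measured 6.5, 0.196 and 0.286 CPM and then 1.33, 0.0603 and 0.0574 CPM, and missed the threshold in the other direction (adjusted p = 0.06). Of 34 synapse genes, SYP and CPLX2 rose, both with overlapping days, at log2 fold changes of 1.99 ± 0.36 and 2.01 ± 0.39 (SE), and the list median was 0.04.

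**Figure D3:**
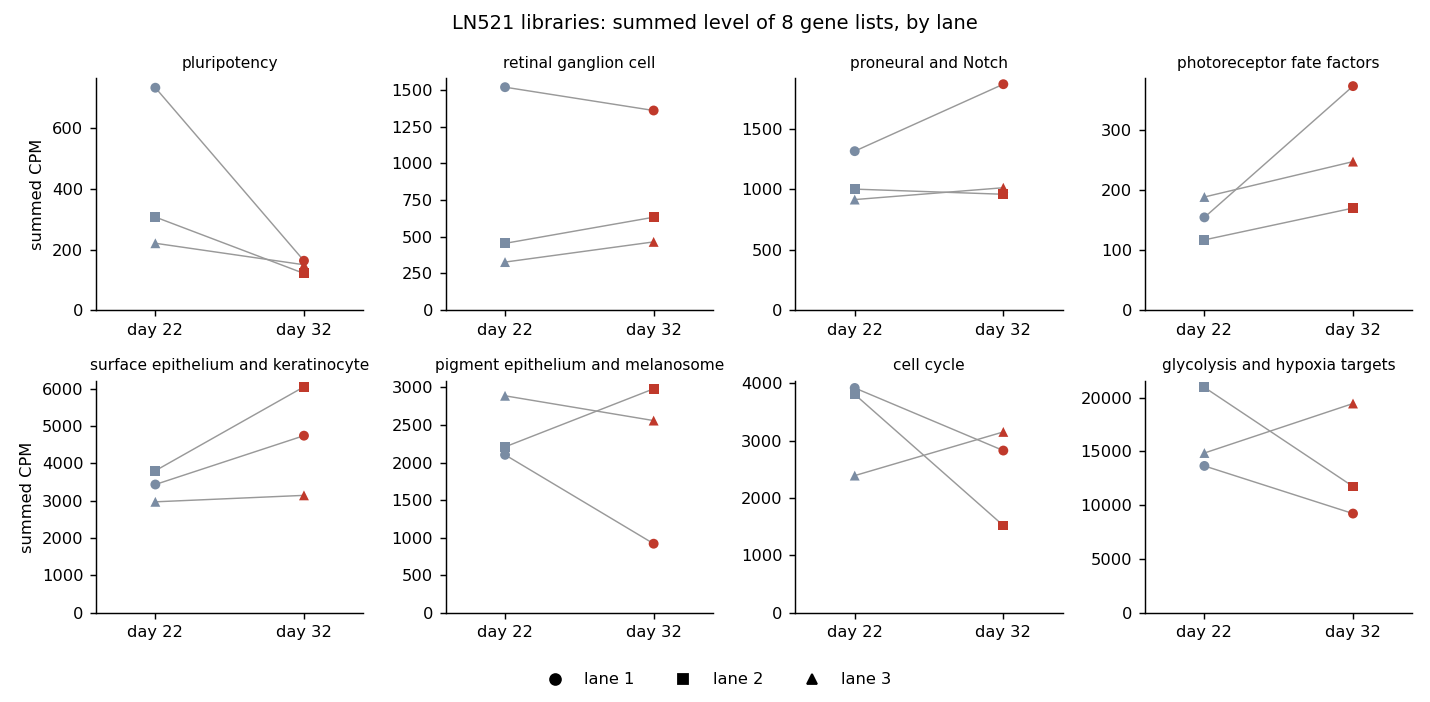
Summed level of the members of 8 gene lists in each LN521 library (CPM, linear axis from 0), with day 22 and day 32 side by side, a separate symbol for each lane and lines joining the libraries of a lane. Lane 1 is far above lanes 2 and 3 in the ganglion cell sum at both days and in the pluripotency sum at day 22.

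Genes of pluripotent and early embryonic cells were among the falls on LN521, where 0.0685% of all genes tested fell. Of 15 pluripotency genes, LIN28A and DPPA4 fell, 0 rose and 13 did not pass, and 14 of the 15 had a negative log2 fold change, with a median of -1.40. The summed level went from 734, 307 and 221 CPM to 163, 121 and 150 CPM, so the days did not overlap. LIN28A, an RNA-binding protein that blocks maturation of the let-7 microRNAs, lies on chromosome 1 (26410817 to 26429728, plus strand). It measured 228, 154 and 105 CPM at day 22 and 26.4, 19.1 and 12.6 CPM at day 32. Each lane fell to a similar degree, and the log2 fold change was -3.06 ± 0.47 (SE, adjusted p = 0.0065), or 8.35-fold lower. DPPA4, a chromatin protein of pluripotent cells, measured 45.0, 1.51 and 1.89 CPM and then 6.72, 1.02 and 0.517 CPM, so that most of its RNA was in lane 1, and its adjusted p was 0.049. POU5F1 and NANOG had log2 fold changes of -1.45 ± 0.43 and -2.05 ± 0.60 (SE) and did not pass. Lanes 2 and 3 held 1.26 to 1.75 CPM of POU5F1 over both days, and without lane 1 neither LIN28A nor DPPA4 passed. LIN28A then had a log2 fold change of -3.03 (adjusted p = 0.433) and DPPA4 one of -1.13 (adjusted p = 1).

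SALL4, a zinc-finger factor of embryonic stem cells, fell from 74.1, 49.1 and 53.1 CPM to 12.8, 17.2 and 6.46 CPM, a log2 fold change of -2.33 ± 0.42 (SE). TERT, the catalytic subunit of telomerase, fell from 2.96, 3.03 and 0.857 CPM to 0.297, 0.181 and 0.460 CPM, a log2 fold change of -2.83 ± 0.58 (SE). Both had days that did not overlap. Of 11 developmental timing genes, 0 passed, but LIN28A was counted in the pluripotency list and not among these 11. HMGA1, a chromatin protein of proliferating embryonic cells, measured 985, 962 and 764 CPM and then 455, 632 and 368 CPM, and missed the threshold at an adjusted p of 0.051. NFIB and NFIX, nuclear factor I genes of late progenitors, were higher in every day 32 library, at log2 fold changes of 1.06 ± 0.34 and 2.92 ± 0.64 (SE), and also missed it. Of the 11 genes, 3 had days apart with day 32 higher and 4 with day 32 lower. Over all genes tested these shares were 3.76% and 4.55%.

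Of 31 WNT and BMP genes, WNT3A and WNT8B fell, 0 rose and 29 did not pass, with a median of -0.41. Among all genes tested 0.0685% fell. WNT3A, a ligand of the canonical pathway, measured 3.57, 0.635 and 1.31 CPM and then 0.445, 0.301 and 0.230 CPM, a log2 fold change of -2.48 ± 0.52 (SE, adjusted p = 0.037). WNT8B, a ligand of the forebrain and eye region, measured 1.03, 1.03 and 3.31 CPM and then 0.198, 0.151 and 0.747 CPM, a log2 fold change of -2.30 ± 0.46 (SE, adjusted p = 0.027). Both were low at day 22, and their calls were kept in only 1 and 2 of 15 settings. BMP4, BMP7, NOG and RSPO1 were also lower in every day 32 library and did not pass. Days apart in this direction occurred in 4.55% of all genes tested and in 7.61% of those at 1 CPM or more.

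The other named falls were at low levels or uneven between lanes. HAPLN1, a link protein that ties hyaluronan to proteoglycans, went from 13.8, 1.51 and 4.68 CPM to 0.420, 0.181 and 1.21 CPM, a log2 fold change of -3.41 ± 0.56 (SE). GRM3, a metabotropic glutamate receptor, went from 5.82, 1.69 and 4.46 CPM to 0.766, 0.603 and 0.689 CPM, a log2 fold change of -2.51 ± 0.51 (SE), and 18.9% of its exon length is shared with genes of the opposite strand. In both genes the days did not overlap. HMX3 and OTOL1, both known from the inner ear, fell with overlapping days, at log2 fold changes of -2.60 ± 0.53 and -3.30 ± 0.62 (SE). FAM221B fell by 2.5 ± 0.46 (SE) on the log2 scale, with 33.1% of its exon length shared with other genes of its strand. HBE1, the embryonic beta-type globin, had the largest negative value at -4.10 ± 0.78 (SE), but 90.0% of its exons are shared with other genes of the same strand, so that its count is uncertain.

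The remaining named rises belonged to no list. SERPINB10, a serine protease inhibitor, was at 0 CPM in all 3 day 22 libraries and at 2.77, 2.41 and 0.0574 CPM at day 32, which is at least 22.8-fold higher when 3 counts per library are taken for day 22. SERPINI2, of the same superfamily, was also at 0 CPM at day 22 and reached 1.93, 0.723 and 1.24 CPM, at least 16.9-fold higher. C7, a complement component, measured 0.141, 0.0978 and 0.171 CPM and then 21.9, 1.93 and 7.67 CPM, a log2 fold change of 6.22 ± 0.77 (SE). The days of SERPINI2 and C7 did not overlap, whereas SERPINB10 was above the level of 3 counts only in lanes 1 and 2 at day 32. FGF1, a growth factor, was carried by lane 1, at 0.0469, 0 and 0.229 CPM and then 13.6, 0.362 and 1.09 CPM. HOXB9, a homeobox gene of the trunk, was likewise at 25.6 CPM in lane 1 at day 32, against 1.08 and 0.0574 CPM in the other lanes. MSMB, a secreted protein of mucosal glands, reached 0.989, 1.90 and 0.977 CPM from 0, 0.147 and 0 CPM.

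The remaining cell type lists had 1 or 0 calls, where 0.203% of all genes tested rose and 0.0685% fell. Of 22 pigment epithelium and melanosome genes, MLANA, a melanosomal protein, rose from 0.282, 0.342 and 0.286 CPM to 0.964, 1.93 and 4.51 CPM, a log2 fold change of 2.89 ± 0.55 (SE, adjusted p = 0.019). The list median was 0.29, and its sum was lowest in lane 1 at day 32, at 919.8 CPM against 2982 and 2559 CPM in lanes 2 and 3. PMEL and TYRP1, the most abundant pigment genes named here, had log2 fold changes of -0.54 ± 0.22 and -1.09 ± 0.63 (SE) and did not pass. GPNMB, a melanosomal glycoprotein, was higher in every day 32 library, at 17.6, 17.1 and 10.5 CPM and then 20.5, 97.9 and 43.2 CPM, and TYR, tyrosinase, had a log2 fold change of 0.90 ± 0.42 (SE), and neither passed. CATGTG stood in 7 of 14 matched pigment promoters (50%), in 3 of 12 of fate factors (25.0%) and in 1 of 37 of phototransduction genes (2.70%), against 9.54% of all promoters. The promoters of GPNMB (chr7:23246645-23246774) and TYR (chr11:89177765-89177874), both on the plus strand, are printed because each holds 2 such sites, in capitals, and the GPNMB sites read from the opposite strand.
GPNMB: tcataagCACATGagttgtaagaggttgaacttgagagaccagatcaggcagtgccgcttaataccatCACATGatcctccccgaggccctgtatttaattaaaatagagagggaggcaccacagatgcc
TYR: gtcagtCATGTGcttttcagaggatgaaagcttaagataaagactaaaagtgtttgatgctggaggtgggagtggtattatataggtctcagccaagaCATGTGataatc

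Of 13 endothelium and blood genes, PECAM1, an adhesion molecule of endothelium and leukocytes, rose from 0.516, 0.0978 and 0.171 CPM to 7.27, 1.08 and 1.21 CPM, a log2 fold change of 3.58 ± 0.64 (SE). The sum of this list stayed between 10.95 and 48.57 CPM over the 6 libraries. None of the 18 mesenchyme genes passed, although FOXC1, COL3A1, PDGFRA and OGN were higher in every day 32 library, with a list median of 0.52. As given above, 3.76% of all genes tested had days apart in this direction. The summed level of the list was 2343 to 2903 CPM at day 22 and 3155 to 4313 CPM at day 32, so that the days did not overlap. The pluripotency and developmental timing sums were the other list sums with days apart, the latter at 1957 to 2691 CPM and then 1423 to 1691 CPM. The retinal progenitor list (25 genes, median -0.21), horizontal and amacrine cells (19 genes, median 0.61), bipolar cells (12 genes, median -0.18), Muller glia (15 genes, median 0.11), lens (21 genes, median 0.34), neural crest (11 genes, median 0.22), and optic stalk and forebrain (22 genes, median -0.34) had 0 calls each.

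Lists of cell state also had 0 calls on LN521. Of the 32 cell cycle genes, 31 had a negative log2 fold change with a median of -0.46, but only 5 had an unadjusted p-value under 0.05, and the lanes did not move together. The cell cycle sum was 3922, 3810 and 2393 CPM at day 22 and 2830, 1522 and 3155 CPM at day 32, lower in lanes 1 and 2 and higher in lane 3. Of the 26 glycolysis and hypoxia genes, 24 were negative, with a median of -0.36, and their sum was likewise lower in lanes 1 and 2 and higher in lane 3. HK2, a hexokinase, measured 95.7, 102 and 97.4 CPM and then 39.0, 45.9 and 79.8 CPM, and missed the threshold with an adjusted p of 0.15. The medians of the other lists were -0.04 for cholesterol synthesis (20 genes), 0.32 for stress and unfolded protein response (19 genes), 0.29 for retinoic acid response (16 genes), 0.50 for gp130 and STAT3 signalling, through which CNTF acts (14 genes), and 0.28 for the BDNF receptor and neuronal activity (17 genes). LIFR, IL6ST and STAT3 were higher in every day 32 library, at log2 fold changes of 0.69 ± 0.28, 0.57 ± 0.20 and 0.43 ± 0.19 (SE), and did not pass. Days apart in this direction occurred in 3.76% of all genes tested and in 6.26% of those at 1 CPM or more.

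The genes that changed on LN521 mostly had the same sign on the other coatings, with smaller values. Of the 86 rises, 76 were positive on LN523 and 81 on LN323, and 28 and 11 of them passed there, where 0.416% and 0.13% of all genes tested rose. Of the 29 falls, 26 were negative on LN523 and 25 on LN323, and 2 and 1 passed, where 0.0213% and 0.00472% of all genes tested fell. The median of the rises was 3.04 on LN521, 1.31 on LN523 and 1.56 on LN323, but the genes were chosen for their change on LN521, which favours LN521 in this ranking. The surface epithelium list had a median of 0.60 on LN521, -0.30 on LN523 and 0.21 on LN323. The proneural list had medians of 0.57, 2.23 and 0.47, and the ganglion cell list of 0.33, 1.58 and 1.24. These list medians were not tested against each other. Among single genes, RBP3, ATOH7, NEUROD1 and DLL4 also passed on LN523, at log2 fold changes of 5.39, 4.99, 5.04 and 4.17.

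The difference between the LN521 and the LN523 change passed for 3 of 42336 genes (0.00709%), higher on LN521 in 1 (0.00236%) and lower in 2 (0.00472%), with 1929 at an unadjusted p-value under 0.05, and 0 genes passed without the lane block. GJB2 rose more on LN521, by 4.23 ± 0.58 (SE, adjusted p = 0.0234) on the log2 scale. On LN523 it measured 0.429, 25.1 and 0.700 CPM at day 22 and 0.392, 23.1 and 2.46 CPM at day 32, so that lane 2 was high at both days. The surface epithelium sum was likewise highest in lane 2 on LN523, at 5355 and 5548 CPM at the 2 days against 1251 to 2600 CPM in the other lanes, and its part in this difference was not tested. SEZ6L, a membrane protein of neurons, changed less on LN521, by -5.04 ± 0.63 (SE, adjusted p = 0.00465). On LN521 it measured 21.4, 1.81 and 0.514 CPM and then 17.4, 3.56 and 1.21 CPM, and on LN523 0.0477, 0.440 and 0.233 CPM and then 8.75, 13.2 and 5.43 CPM. MIR124-1HG, the host transcript of a neuronal microRNA, differed by -4.14 ± 0.65 (SE, adjusted p = 0.0448). On LN521 it measured 7.96, 1.51 and 0.400 CPM and then 22.3, 2.08 and 0.977 CPM, and on LN523 0.286, 0.440 and 0 CPM and then 13.1, 13.4 and 3.26 CPM. Both neuronal transcripts were already highest in lane 1 at day 22 on LN521, as was the ganglion cell sum, whose part in these differences was not tested.

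KRT17 rose on all coatings. On LN523 it measured 12.9, 33.6 and 19.7 CPM and then 60.8, 368 and 111 CPM, and on LN323 15.2, 14.6 and 14.1 CPM and then 110, 391 and 108 CPM. Its change was 2.70 ± 0.45 (SE) larger on LN521 than on LN523, at an adjusted p of 0.0801 that missed the threshold. SCEL, sciellin of the cornified envelope, and MPZL2, an epithelial adhesion protein, were larger by 2.19 ± 0.36 and 2.22 ± 0.42 (SE) and also missed it, as did HPX, at 4.69 ± 0.97 (SE). HPX was low on LN521, at 0.282, 0.0978 and 0.200 CPM and then 2.97, 0.422 and 0.115 CPM, and was lower at day 32 in lane 3. MYT1, NFASC, ELAVL3 and GRIN3A, all of neurons, had lower changes on LN521 than on LN523, with differences from -2.77 to -3.60 on the log2 scale and adjusted p-values of 0.0787 to 0.10. GRIN3A had a log2 fold change of -1.96 on LN521 and 0.88 on LN523.

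Against LN323, 0 genes passed by edgeR and 5 by DESeq2, with 1180 genes at an unadjusted p-value under 0.05 by edgeR. The genes nearest to the threshold were RBP3, GJB2, SCEL and SKAP1, with larger changes on LN521, and OLIG3, with a lower one (-2.23, against 2.37 on LN323), all at an adjusted p of 0.247. RBP3 measured 1.25, 3.63 and 0.777 CPM on LN323 at day 22 and 5.85, 11.2 and 2.74 CPM at day 32, a change 4.59 ± 0.81 (SE) smaller than on LN521. On LN523 it measured 0.596, 1.81 and 0.0583 CPM and then 44.7, 50.3 and 4.79 CPM. There its difference from LN521 was 1.02 ± 0.95 (SE) and did not pass. RHCG was also higher and SEZ6L, GRIN3A, P2RX3 and COL14A1 lower on LN521 in the difference from LN323, at adjusted p-values of 0.351 to 0.536.

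**Figure D4:**
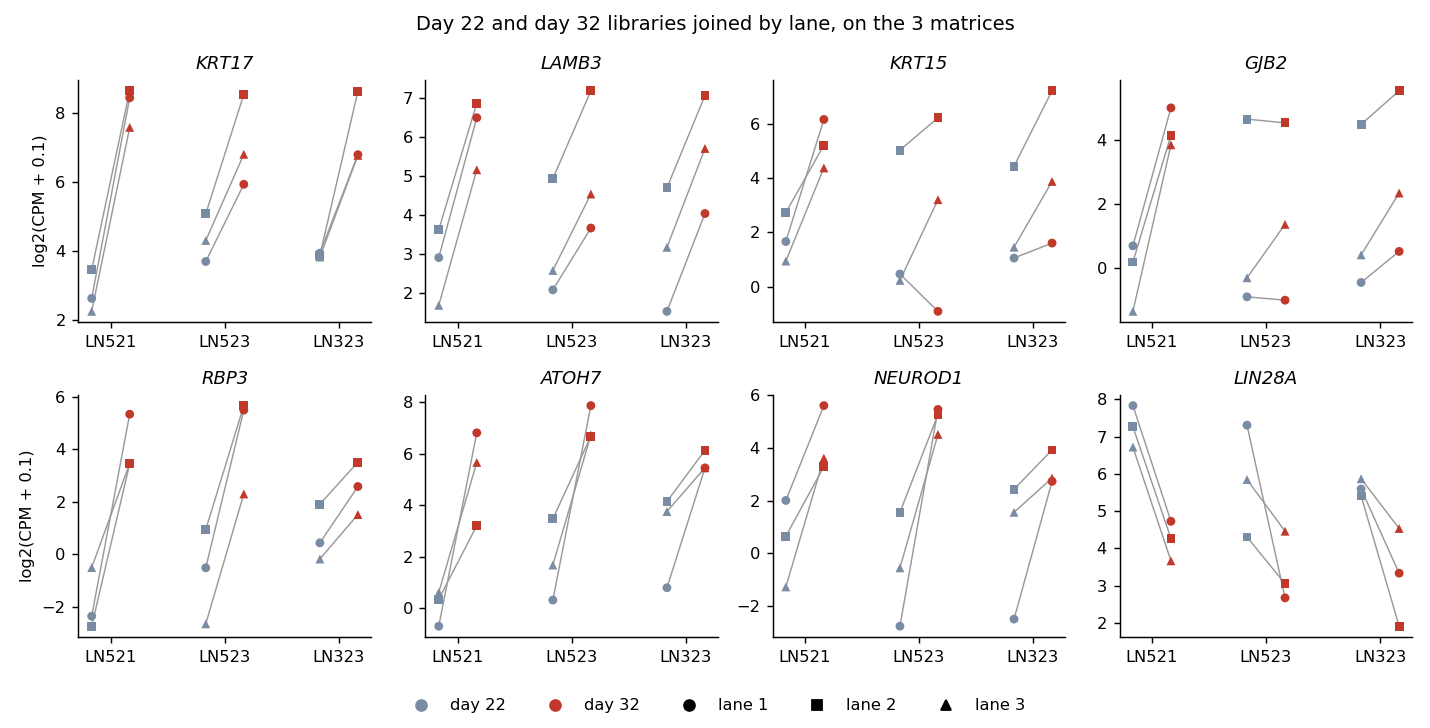
Levels of 8 genes (vertical axis, log2 of CPM + 0.1) in every library of LN521, LN523 and LN323 at day 22 (grey-blue) and day 32 (red), with a separate symbol for each lane and lines joining the libraries of a lane. GJB2 is low in every LN521 library at day 22 and high at day 32, whereas on LN523 and LN323 lane 2 is high at both days.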

How the data were processed

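Bulk RNA-seq counts of 44852 genes in 27 libraries were used. The authors extracted total RNA, removed ribosomal RNA, prepared stranded libraries, sequenced 150 bp pairs, trimmed reads with cutadapt, aligned them to GRCh38 with Ensembl release 79 by STAR 2.5.2b, counted genes with featureCounts 1.5.1 and removed ribosomal and mitochondrial genes. The values they deposited are rounded counts per gene without normalization, beside which the authors gave TPM values from these counts. The strand setting of the counting is not given in the sources used here. Of the non-zero LN521 counts, 68.7% were even, so that a count may hold fewer fragments than its size. Genes were named by GENCODE 44, which matched 43052 of them.

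Days 22 and 32 were compared by edgeR 4.0.16 (R 4.3.3), with its quasi-likelihood test after TMM normalization, over 18 libraries of 3 coatings and 42336 genes whose counts summed to more than 1, using group effects and 9 matrix-by-lane replicate blocks. P-values were Benjamini-Hochberg adjusted over all genes, at a threshold of 0.05. The bias-adjusted form of the test was chosen after both forms had been run, because on simulated data for LN521 (38049 genes, 200 changed) it made 2 false calls, against 156 for the earlier form and 90 for DESeq2 1.42.0. It then recovered 39% of log2 changes of 2 and 1% of log2 changes of 1, so that genes which did not pass may have changed. The simulated counts did not carry the excess of even counts, and no stricter filter was run on them. Lane, which equals the replicate number and was a covariate in the study's own model, is the pairing. Deviations of the same lane at the 2 days correlated at 0.477, -0.044 and 0.444 on LN521 over 16226 genes. For lanes 1 to 3 they correlated at 0.457, 0.317 and -0.013 on LN523, and at 0.558, 0.331 and -0.089 on LN323. Some unmatched lanes correlated as well, up to 0.469 for lane 2 at day 22 with lane 3 at day 32 on LN323. The pairing is therefore not borne out in every block. Alternatives were DESeq2, RLE size factors, stricter filters, other sets of libraries, other blocks, limma 3.58.1 on log2(TPM + 1) or log2(TPM + 0.1), leaving out each lane, and, added after the data were seen, the earlier edgeR form.

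Named genes were up to 12 rises and 12 falls with the largest log2 fold change among protein-coding genes past the threshold with a mean of at least 1 CPM at a day and the same sign in 3 lanes, up to 5 a direction for differences, and the members of 29 gene lists. The members and lists were chosen with earlier results of these data known. GNAT2, GUCA1C, SOX10, HBG1, NKX2-2, CPLX3 and XBP1 were not analysed here. Some genes are not reported here.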

Additional observations from a re-analysis of the deposited data

Results flagged for a closer look

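The change between day 22 and day 32 differed between LN521 and LN523 in 3 genes by a test of the difference itself. GJB2 rose by 4.23 more on LN521 on the log2 scale, SEZ6L differed by -5.04 and MIR124-1HG by -4.14. For GJB2, the lane 2 libraries on LN523 held 25.1 and 23.1 CPM at the 2 days against 0.392 to 2.46 CPM in the other lanes, and for SEZ6L the lane 1 libraries on LN521 held 21.4 and 17.4 CPM against 0.514 to 3.56 CPM. The part of these libraries in the differences was not tested, and with the lane block left out 0 genes passed.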

How the results depend on the processing

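The count of 115 genes on LN521 was moved by every alternative but RLE size factors (123 genes). It was 360 with DESeq2, 34 with the filterByExpr filter and 7 with at least 10 counts in every library. It was 48 with the 6 LN521 libraries and lane as a replicate block, 46 with these and no block, 193 with all 27 libraries, 36 with lane shared by the coatings as the replicate block, and 12 with no replicate block. It was 6 with limma on log2(TPM + 1) and 7 on log2(TPM + 0.1). Leaving out a lane gave 9 to 61 genes, with 9 for lane 1. The earlier form of the edgeR test, added after seeing the data, gave 546, and 7 with the filterByExpr filter. For the difference from LN523, the 3 genes became 44 with DESeq2, 1 with filterByExpr, 14 with all 27 libraries, 0 with the shared lane block, 0 with no replicate block, 0 with limma, 0 to 9 when a lane was left out, and 253 with the earlier form. For the difference from LN323, the 0 genes became 5 with DESeq2, 1 with all 27 libraries, 0 to 2 when a lane was left out and 45 with the earlier form. The cause of these changes was not tested.

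All 24 named genes kept their direction in every setting that gave them a value. They had been chosen for large changes with the same sign in all 3 lanes, so that a reversal was unlikely from the start. Their calls were less stable. Of the 24, 23 passed with RLE size factors, 4 with no replicate block, 3 without lane 1 and 2 with limma on log2(TPM + 1). Recomputed list medians moved by more than the spread between lanes in 19 cases and by less in 445. The numbers of fragments behind CNGA3, WNT3A and other genes near 1 CPM limit their precision.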

Other observations

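Further genes that passed on LN521 were chosen here after their values were seen, and they belong to no list of the report. GBP1, CASP1, STING1, IFI44 and GBP2 were among the rises. GBP1, an interferon-induced GTPase, measured 1.97, 3.42 and 1.94 CPM in lanes 1 to 3 at day 22 and 17.9, 11.5 and 14.8 CPM at day 32, with no overlap and a log2 fold change of 2.58 ± 0.37 (SE, adjusted p = 0.004 by edgeR). CASP1, an inflammatory protease, measured 0.141, 0.147 and 0.229 CPM and then 5.34, 3.62 and 0.862 CPM. STING1, an adaptor of cytosolic DNA sensing, measured 1.78, 0.489 and 0.400 CPM and then 8.55, 11.9 and 3.27 CPM. IFI44 and GBP2 also rose without overlap, at log2 fold changes of 3.40 ± 0.64 and 2.60 ± 0.50 (SE).

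IGFBP3, PLAT, PTHLH and OXTR also rose. IGFBP3, a carrier of insulin-like growth factors, measured 64.8, 58.6 and 96.6 CPM and then 498, 309 and 200 CPM, a log2 fold change of 2.14 ± 0.29 (SE, adjusted p = 0.0021). PLAT, tissue plasminogen activator, measured 24.2, 18.7 and 11.9 CPM and then 138, 71.2 and 41.5 CPM, and PTHLH, parathyroid hormone-like hormone, measured 2.58, 3.94 and 1.49 CPM and then 37.8, 21.1 and 10.5 CPM. OXTR, the oxytocin receptor, measured 17.1, 16.6 and 13.8 CPM and then 56.8, 86.6 and 51.4 CPM. None of these 4 genes had days that overlapped. On LN523 their log2 fold changes were 0.23, 0.52, 0.65 and 0.41, and the differences from LN521 did not pass.

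SALL2, SCUBE3 and IGDCC3 fell. SALL2, a zinc-finger factor of the optic cup, measured 221, 184 and 206 CPM and then 89.4, 92.5 and 138 CPM, a log2 fold change of -0.96 ± 0.19 (SE, adjusted p = 0.037). SCUBE3, a secreted signalling protein, measured 234, 201 and 200 CPM and then 96.5, 96.7 and 127 CPM. IGDCC3, an immunoglobulin superfamily member, measured 352, 280 and 207 CPM and then 78.6, 111 and 104 CPM, a log2 fold change of -1.50 ± 0.24 (SE, adjusted p = 0.0079). Each of these 3 genes had days that did not overlap.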
